A study of Homo sapiens with 6 samples.

Results

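The genes described here are 33 targets and regulators of the p53 pathway, measured in Ewing sarcoma cells with and without an inducible cDNA of the lysyl oxidase propeptide. They were chosen by name, without CDKN1A and the BCL2 family, from the 20503 genes that could be named on the array, and each was represented by its probe with the highest mean log2 signal over the 6 arrays. All 33 had a probe. The comparison shows which p53-responsive transcripts differed between the 2 kinds of cells.

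A673 is an Ewing sarcoma cell line driven by the EWS/FLI1 fusion. A673/TR cells carry the tetracycline repressor (TR), which keeps an inserted cDNA silent until doxycycline is added. The 3 samples of A673/TR/LOX-PP cells carried a lentiviral cDNA of the LOX propeptide and received doxycycline for 72 h, and the 3 samples of A673/TR/empty cells, the controls, carried the vector alone. The labels give doxycycline at 1 µM for all 6 samples, whereas the methods name the treatment clearly only for the A673/TR/LOX-PP cells, so that treatment of the controls is not settled. The lines were made by lentiviral infection and selection of stable clones, and the sources used here do not say which clone was put on the arrays. The methods describe 3 separate experiments per cell line, and with 3 arrays per group their number limits the precision.

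p53 is a transcription factor that is stabilised by DNA damage and other stress and then switches on genes for growth arrest, DNA repair, metabolism and cell death. Some of its targets, MDM2 above all, shut p53 down again in a feedback loop. Many of the same genes also respond to other factors, among them the p53 relatives p63 and p73, FOXO proteins and the integrated stress response.

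p53 binds DNA as a tetramer, on a full site of 2 adjacent half-sites of 10 bases. To show what this element looks like in the members, the p53 full-site consensus was searched in RefSeq promoter windows of GRCh38.p14, from 250 bases before to 50 bases after the start of each gene. The consensus reads the same on both strands, so 1 pass covers both. Each half-site had to keep its 4-base core CNNG, no spacer was allowed, and up to 3 of the 20 bases could deviate. A window was at hand for 27 of the 33 members, and 7 of these held a match, against 1.12% of all 35116 windows and 1.37% of all 27305 genes. The matches follow, with the cores in capitals.

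DDB2: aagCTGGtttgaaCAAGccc
MDM2: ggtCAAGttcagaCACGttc
AEN: gggCTTGcccgggCATGtgg
FAS: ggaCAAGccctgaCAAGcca
GDF15: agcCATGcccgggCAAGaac
FDXR: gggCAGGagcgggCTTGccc
SESN1: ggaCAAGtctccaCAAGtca

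The DDB2 element deviated from the consensus at 1 position, those of MDM2, AEN and FAS at 2, and the others at 3. MDM2 has windows at 2 groups of annotated starts, and the upstream ones held no match. DDB2, FAS, FDXR and SESN1 also have windows at other annotated starts, and those held no match either. The MDM2 element began 94 bases before a downstream start, in the window chr12:68808767-68809066 on the plus strand, which is printed here with the element in capitals because MDM2 is the standard readout of active p53.

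MDM2: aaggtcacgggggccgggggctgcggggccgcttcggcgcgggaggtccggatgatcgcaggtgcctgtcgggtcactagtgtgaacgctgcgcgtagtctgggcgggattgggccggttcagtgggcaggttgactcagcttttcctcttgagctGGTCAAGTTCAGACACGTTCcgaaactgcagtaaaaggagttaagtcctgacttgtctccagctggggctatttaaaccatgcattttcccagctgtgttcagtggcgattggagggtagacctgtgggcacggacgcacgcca

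The window of PERP, the member with the largest difference, was chr6:138107370-138107669 on the minus strand. Its closest stretch deviated at 5 positions, so that it held no match and is printed without capitals.

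PERP: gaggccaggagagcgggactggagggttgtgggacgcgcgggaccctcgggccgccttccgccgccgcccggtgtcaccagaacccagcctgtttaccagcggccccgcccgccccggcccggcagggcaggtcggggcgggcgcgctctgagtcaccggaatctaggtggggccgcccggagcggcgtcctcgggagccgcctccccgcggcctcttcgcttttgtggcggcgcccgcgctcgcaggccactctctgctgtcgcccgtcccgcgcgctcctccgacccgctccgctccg

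A match is a description of the letters in this window and says nothing about binding in these cells. Known p53 elements can also lie outside it, for example in introns.

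Signals are given as log2 signal over the 75th percentile of the array. Differences are A673/TR/LOX-PP minus A673/TR/empty on the log2 scale and are stated relative to the median of the 32647 probes tested, which itself lay 0.13 above 0 before this step. The standard error (SE) is that of the difference before this step. The 95% interval was shifted by the same median, taken as fixed, and is centred on the relative difference. The unadjusted p and the adjusted p (limma, Benjamini-Hochberg over all 32647 probes) belong to the difference before this step. An interval can therefore include 0 where the unadjusted p is under 0.05. Slide 2 held a single array, replicate 1 of A673/TR/LOX-PP, and slide 1 held the other 5. From 53.9% to 72.8% of the probes were well above background per array, and negative control spots had a net signal from 64.4 to 575. The single LOX probe was not higher in the A673/TR/LOX-PP cells (relative difference -0.95, adjusted p = 0.217 in limma). The sources used here do not say whether it covers the propeptide region, so it cannot check the labels. Induction of the propeptide was therefore not seen on these arrays. All 8 markers of Ewing sarcoma cells were well above background on every array and none passed the threshold in limma (1 at an unadjusted p under 0.05). Of the 6 markers of blood, vessel, epithelium and fibroblasts, 4 were well above background on all arrays (PTPRC, CD14, EPCAM and DCN) and 1 passed (LUM). LUM was lower in A673/TR/LOX-PP cells and was well above background on 2 control arrays and 1 A673/TR/LOX-PP array, so that it was set against a group mostly at background. The counts refer to the brightest probe of each marker. Other probes of PTPRC were well above background on 0, 1 and 0 arrays, and another probe of DCN on 3. The part of the markers in the results was not tested.

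Most p53 pathway genes did not pass the test, and their differences lay on both sides of the median of the array. Of the 33 members, 31 were well above background on at least 3 arrays and were tested, and 2 of the 31 passed an adjusted p of 0.05, where 5.66% of all tested probes did. The 1 member in each direction compares with 3.31% of the probes higher and 2.36% lower. Of the 16593 named genes tested, each by its brightest probe like the members, 1173 passed, 615 higher and 558 lower. PERP, a tetraspan membrane protein of cell junctions and apoptosis, rose 7.17-fold relative to all probes, and TNFRSF10A, a death receptor for the ligand TRAIL, fell 2.84-fold. MDM2, the ubiquitin ligase that marks p53 for degradation, had a relative difference of -0.32 with an interval from -0.99 to 0.35. The relative difference was above 0 for 17 members and below 0 for 14, with a median of 0.02, and the median over all 16593 named genes tested was -0.09.

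The size of the differences was somewhat larger than over the array, with a median absolute value of 0.47 for the members and 0.38 for all probes. It was 0.39 for the 16593 named genes tested, each by its brightest probe. In 15 of the 31 the 3 arrays of one group lay wholly above the 3 of the other, 10 with A673/TR/LOX-PP higher and 5 with it lower, where 29.5% of all probes showed such a separation (16.1% higher and 13.4% lower). Among the 16593 named genes 5573 were separate, 2560 higher and 3013 lower. At an unadjusted p under 0.05 there were 10 members (32.3%), against 21.3% of all probes and 23.7% of the named genes. A relative difference of at least 2-fold, without regard to a test, was seen in 5 members (16.1%), against 12.8% of all probes and 14.1% of the named genes. These 5 were PERP, TP53INP1, DDB2, RRM2B and TNFRSF10A.

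**Figure D1:**
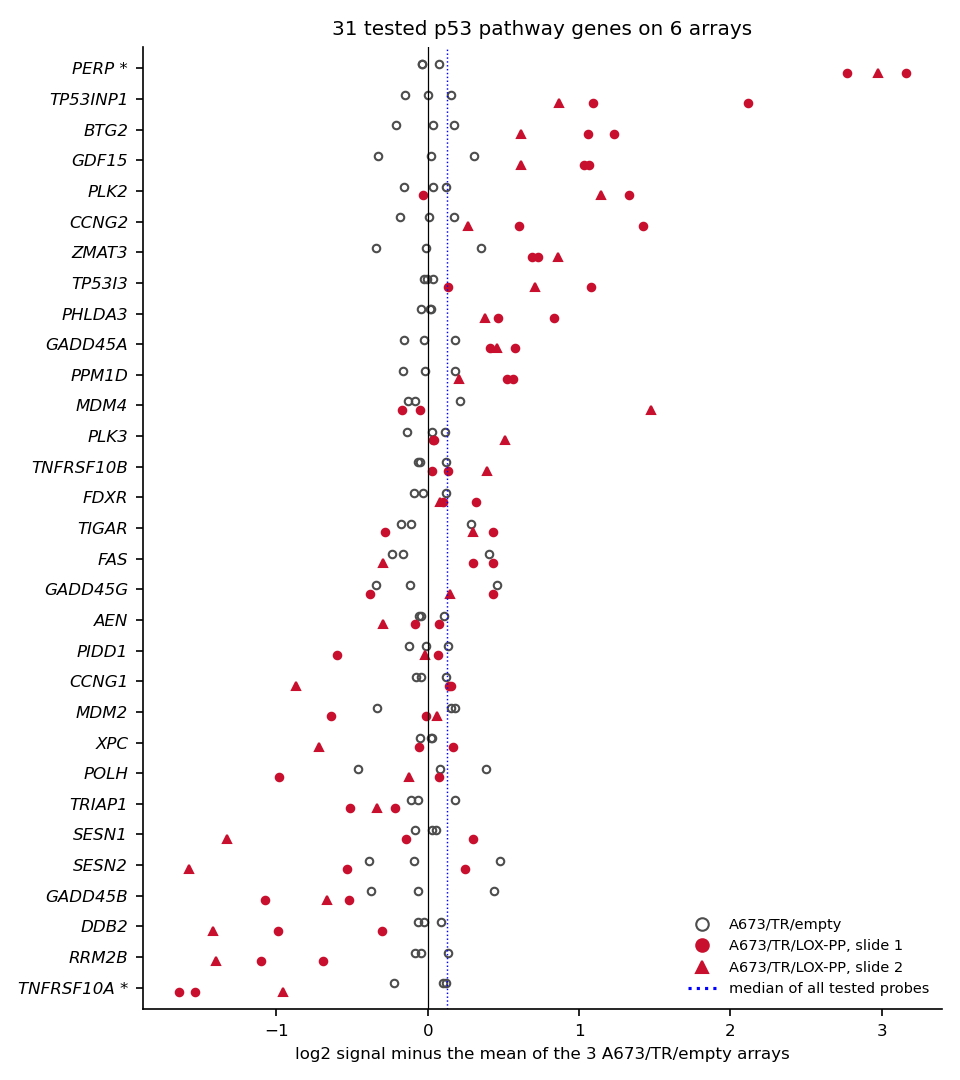
Log2 signal of the 31 tested members on each array, minus the mean of the 3 A673/TR/empty arrays (x axis, log2), with 1 row per gene sorted by difference. Open circles are A673/TR/empty arrays, filled symbols A673/TR/LOX-PP arrays with a triangle for the array on slide 2, the dotted line is the median of all tested probes (0.13), and an asterisk marks the 2 members past the threshold. PERP stands apart at the top, TNFRSF10A is lowest, and most points of the other rows lie within 1 log2 unit of the controls.

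The 5 feedback regulators hold p53 in check or are the cyclins CCNG1 and CCNG2. None of the 5 passed the threshold in limma (0 at an unadjusted p under 0.05), and their median relative difference was 0.29. MDM2 (chromosome 12) had a log2 signal of 0.83, 0.81 and 0.32 in the control cells and 0.71, 0.64 and 0.01 in A673/TR/LOX-PP cells. The groups overlapped, with replicate 3 the lowest in both. The relative difference of -0.32 had an adjusted p of 0.737 (limma, Benjamini-Hochberg). This gene has 4 tested probes, and the other 3 had relative differences of 0.40, 0.53 and 0.39, so that the direction depended on the probe. The mean of the 4 was 0.25, and no MDM2 probe passed the threshold.

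MDM4, a relative of MDM2 that binds p53 and blocks its activation domain, had log2 signals of 1.37, 1.72 and 1.42 in the controls and 2.98, 1.34 and 1.45 in A673/TR/LOX-PP cells. Replicate 1 of A673/TR/LOX-PP, the array on slide 2, stood far above the other 5, and the rest overlapped. The relative difference was 0.29 (interval from -0.78 to 1.36, adjusted p = 0.644 in limma), and it was -0.27 without that array. The 3 other probes of MDM4 had values of -0.31, 0.57 and 0.45.

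PPM1D, the phosphatase that reverses the damage-induced phosphorylation of p53, had log2 signals of 1.26, 1.45 and 1.11 in the controls and 1.48, 1.84 and 1.80 in A673/TR/LOX-PP cells. The groups were separate, but the lowest A673/TR/LOX-PP array was only 0.03 above the highest control. Its relative difference was 0.31 (interval from -0.22 to 0.83, adjusted p = 0.310 in limma), and its second probe gave 0.57.

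CCNG2, a cyclin linked to growth arrest rather than to cycling, showed -3.40, -3.59 and -3.23 in the control cells and -3.14, -2.80 and -1.99 in A673/TR/LOX-PP cells. The groups were separate here too, with replicate 3 of A673/TR/LOX-PP the highest, and the relative difference was 0.64 (interval from -0.15 to 1.42, adjusted p = 0.246 in limma). Its 3 probes ranged from -0.76 to 0.80. CCNG1, a classical p53 target that brings a phosphatase to MDM2, had overlapping groups and a relative difference of -0.32, with its second probe at 0.18.

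The 6 growth arrest genes had a median relative difference of 0.21, and none passed the threshold in limma (2 at an unadjusted p under 0.05). BTG2, an antiproliferative partner of the deadenylase that shortens mRNA tails, had log2 signals of 1.42, 1.18 and 1.56 in the controls and 2.00, 2.45 and 2.62 in A673/TR/LOX-PP cells. All 3 A673/TR/LOX-PP arrays lay above all controls. The relative difference was 0.84 (SE 0.25, interval from 0.25 to 1.43), with an adjusted p of 0.0766 (limma, Benjamini-Hochberg). It passed the threshold without replicate 1 of A673/TR/LOX-PP (0.98, adjusted p = 0.0384 in limma) and after quantile normalization (1.12, adjusted p = 0.047). Over all 17 alternatives, its adjusted p ranged from 0.0384 to 0.292.

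The GADD45 genes encode small stress sensors that bind cell cycle kinases and a kinase upstream of p38 and JNK, and none of the 3 passed the threshold. GADD45A had log2 signals of 2.67, 3.00 and 2.80 in the controls and 3.28, 3.24 and 3.40 in A673/TR/LOX-PP cells. GADD45B showed 3.17, 3.67 and 2.85 in the control cells and 2.56, 2.71 and 2.15 on the others. Both were separate between the groups, GADD45A with A673/TR/LOX-PP on the higher side and GADD45B on the lower side. The relative differences were 0.35 (interval from -0.13 to 0.84, adjusted p = 0.241 in limma) for GADD45A and -0.88 (interval from -1.57 to -0.20, adjusted p = 0.195) for GADD45B. GADD45G overlapped, with a relative difference of -0.06.

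The other 2 genes of the arrest group, PLK2 and PLK3, encode stress-responsive polo-like kinases. Their groups overlapped, and the relative differences were 0.69 for PLK2 (interval from -0.21 to 1.59) and 0.07 for PLK3 (interval from -0.48 to 0.62).

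The apoptosis and death receptor group held both members that passed the threshold. Of its 12 genes 10 were tested, with a median relative difference of 0.04. PERP (chromosome 6, 1 probe) had log2 signals of -1.88, -1.76 and -1.88 in the controls and 1.14, 0.93 and 1.32 in A673/TR/LOX-PP cells. The arrays within each group lay close together and the groups were far apart. Group means were -1.84 ± 0.066 (SD, n = 3) and 1.13 ± 0.20 (SD, n = 3). The relative difference was 2.84 (SE 0.21, interval from 2.35 to 3.34), with an adjusted p of 0.00112 (limma, Benjamini-Hochberg). PERP passed under all 17 alternatives, of which the slide block and the authors' table add no separate check. In the methods' t-test PERP was the 1 member to pass, where 1.73% of the probes did. The alternatives gave it relative differences from 2.50 to 3.02 and adjusted p-values from 0.000459 to 0.0169.

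TNFRSF10A (chromosome 8) had log2 signals of -0.62, -0.94 and -0.60 in the controls and -1.68, -2.36 and -2.26 in A673/TR/LOX-PP cells. All A673/TR/LOX-PP arrays lay below all controls, with replicate 1 the nearest to them. The relative difference was -1.51 (SE 0.26, interval from -2.13 to -0.88), with an adjusted p of 0.0313 (limma, Benjamini-Hochberg). This call was lost without any 1 of the 3 control arrays (adjusted p = 0.167, 0.108 and 0.0885 for replicates 1 to 3), without replicate 2 (0.0883) or replicate 3 (0.0847) of A673/TR/LOX-PP, in the methods' t-test (0.0898), and with dim probes kept in (0.117), while the direction stayed.

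TNFRSF10B, the other signalling receptor for TRAIL and a well-known p53 target, had a relative difference of 0.06 (interval from -0.44 to 0.56, adjusted p = 0.663 in limma) with overlapping groups. The 4 membrane receptors for TRAIL lie next to each other on chromosome 8 in the order TNFRSF10B, TNFRSF10C, TNFRSF10D and TNFRSF10A. TNFRSF10C, a decoy receptor without a death domain, had log2 signals of -5.84, -5.80 and -4.51 in the controls and -3.51, -3.18 and -3.06 in A673/TR/LOX-PP cells. It passed the threshold on the higher side (relative difference 2.00, interval from 1.07 to 2.94, adjusted p = 0.0290 in limma). It was well above background on all 3 A673/TR/LOX-PP arrays but on only 1 control array, so it entered the test through the group where it was high, and the size of the difference is not well measured. TNFRSF10D, the decoy with a shortened death domain, had a relative difference of -0.23. The differences between the 4 receptors were not tested against each other.

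Chromosome 8 as a whole carried lower values in A673/TR/LOX-PP cells. Its 558 tested genes had a median relative difference of -0.42, and 409 (73.3%) of them lay below 0, against 9374 of all 16593 named genes. Low values were not particular to it, since 82.3% of the genes of chromosome 13 and 69.5% of those of chromosome 11 also lay below 0. The 4 members on this chromosome are TNFRSF10A, TNFRSF10B, RRM2B and TP53INP1, and their values stood on both sides of that median. The part of the chromosome in the values of TNFRSF10A and RRM2B was not tested.

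TP53INP1, a stress protein that promotes cell death and autophagy, had log2 signals of -2.67, -2.52 and -2.82 in the controls and -1.80, -1.58 and -0.55 in A673/TR/LOX-PP cells. All A673/TR/LOX-PP arrays were above the controls, and replicate 3 was far above the other 2. Its relative difference of 1.23 was the next after PERP (interval from 0.39 to 2.07) and did not pass (adjusted p = 0.0784, limma). A second probe gave 1.23 as well, but with overlapping groups, an SE of 0.58 and an interval from -0.15 to 2.61, and it was well above background on 5 arrays.

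ZMAT3, an RNA-binding zinc finger protein that shapes splicing, had log2 signals of -2.12, -2.81 and -2.48 in the controls and -1.61, -1.74 and -1.78 in A673/TR/LOX-PP cells. The controls were spread more widely than the A673/TR/LOX-PP arrays, and the groups were separate. PHLDA3, which competes with the kinase AKT for membrane lipids, showed 0.98, 1.04 and 1.05 in the control cells and 1.40, 1.49 and 1.86 in A673/TR/LOX-PP cells, again without overlap. The relative differences were 0.63 for ZMAT3 (interval from 0.05 to 1.21, adjusted p = 0.136 in limma) and 0.43 for PHLDA3 (interval from -0.08 to 0.95, adjusted p = 0.201).

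TRIAP1, a small mitochondrial protein that protects from apoptosis, had log2 signals of 2.94, 3.23 and 2.99 in the controls and 2.72, 2.84 and 2.54 in A673/TR/LOX-PP cells. The groups were separate with A673/TR/LOX-PP lower, and the relative difference was -0.48 (interval from -0.98 to 0.02, adjusted p = 0.382 in limma).

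The 3 remaining tested genes of the group overlapped between the cells. FAS, the receptor for FAS ligand, had a relative difference of 0.02 (interval from -0.69 to 0.72), and its 3 probes ranged from -0.11 to 0.02. AEN, a nuclease of apoptotic DNA breakdown, had -0.23, and PIDD1, the scaffold that activates caspase-2, had -0.31. EDA2R, a receptor of the TNF receptor family, was well above background on only 1 array, replicate 1 of A673/TR/LOX-PP, and was not tested. SPATA18, a regulator of mitochondrial quality, was well above background only on replicate 1 of each group and was not tested either.

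**Figure D2:**
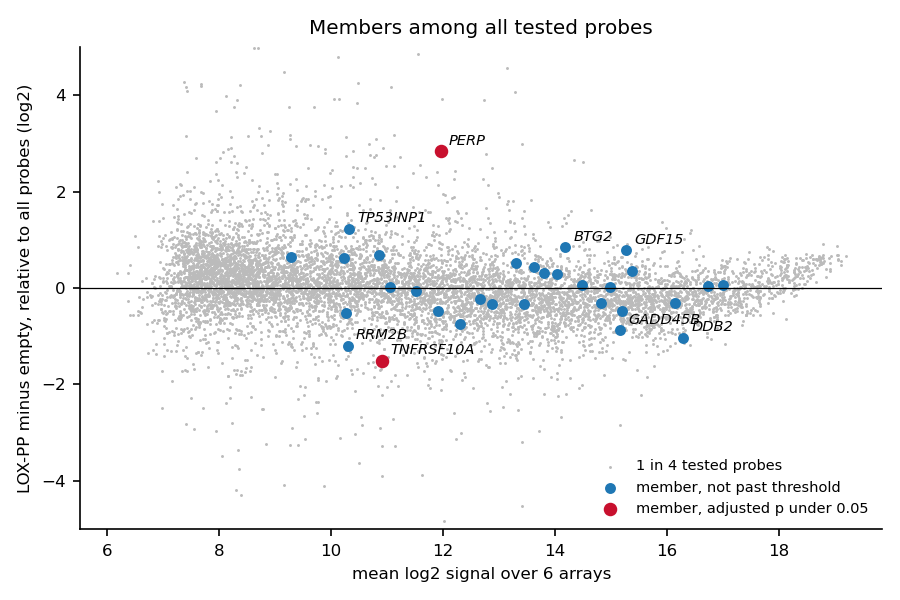
Mean log2 signal over the 6 arrays (x axis) against the relative difference (y axis, log2, cut at ±5) for 1 in 4 tested probes in grey and the 31 tested members in colour, red for the 2 past the threshold. PERP (2.84) lies above most grey points at its signal, TNFRSF10A (-1.51) below most of them, and the other members between -1.19 and 1.23.

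The 6 genes of stress, redox and metabolism had a median relative difference of 0.03, and none passed in limma (1 at an unadjusted p under 0.05). GDF15, a secreted stress cytokine of the TGF-beta family, had log2 signals of 2.17, 2.80 and 2.52 in the controls and 3.11, 3.56 and 3.52 in A673/TR/LOX-PP cells. TP53I3, a quinone oxidoreductase, showed 0.64, 0.66 and 0.70 in the control cells and 1.38, 1.74 and 0.80 in A673/TR/LOX-PP cells. Both genes were higher on all A673/TR/LOX-PP arrays than on any control, although replicate 3 of A673/TR/LOX-PP was close to the controls for TP53I3. The relative difference was 0.78 for GDF15 (interval from 0.17 to 1.39, adjusted p = 0.0999 in limma). For TP53I3 it was 0.51 (interval from -0.15 to 1.18, adjusted p = 0.251), with a second probe at 0.59.

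FDXR, the reductase that feeds electrons to mitochondrial cytochromes, and TIGAR, a phosphatase that turns glycolysis toward the pentose phosphate pathway, overlapped between the groups with relative differences of 0.04 and 0.02. SESN1 and SESN2 encode sestrins, which restrain mTORC1. Their groups overlapped as well, and their relative differences of -0.52 and -0.75 shrank to -0.09 and -0.31 without replicate 1 of A673/TR/LOX-PP, which was the lowest array for both.

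The 4 genes of DNA repair and nucleotide supply all lay below 0, with a median of -0.75, and none passed the threshold in limma (2 at an unadjusted p under 0.05). RRM2B, the p53-induced subunit of ribonucleotide reductase, had log2 signals of -1.57, -1.53 and -1.35 in the controls and -2.89, -2.59 and -2.18 in A673/TR/LOX-PP cells. DDB2, which recognises ultraviolet damage in chromatin, had 4.36, 4.51 and 4.40 in the control cells and 3.00, 3.43 and 4.12 in A673/TR/LOX-PP cells. Both were lower on every A673/TR/LOX-PP array than on any control, and for DDB2 the A673/TR/LOX-PP arrays were widely spread while the controls lay close together.

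The relative difference of RRM2B was -1.19 (SE 0.25, interval from -1.79 to -0.60), with an adjusted p of 0.0584 (limma, Benjamini-Hochberg). It passed after quantile normalization (adjusted p = 0.0354) and with the filters that asked for all 6 arrays (0.0377) or all arrays of a group (0.041) above background. Its second probe gave -0.44. DDB2 had a relative difference of -1.03 (interval from -1.77 to -0.29, adjusted p = 0.159 in limma) and -0.73 with its second probe.

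XPC, the damage sensor of nucleotide excision repair that works with DDB2, had overlapping groups and a relative difference of -0.33 (interval from -0.98 to 0.33). POLH, a polymerase that copies past ultraviolet lesions, overlapped too, with -0.47 for its brightest probe and 0.62 for its other probe.

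Probes of 1 gene did not always give the same sign. Of the 31 members tested, 13 had more than 1 tested probe. In 7 of them all probes lay on the same side of the array median (AEN, DDB2, GADD45G, PPM1D, RRM2B, TP53I3 and TP53INP1), and in 6 they did not (CCNG1, CCNG2, FAS, MDM2, MDM4 and POLH). Differences between probes of a gene were not tested, and for FAS they were small beside the standard errors.

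**Figure D3:**
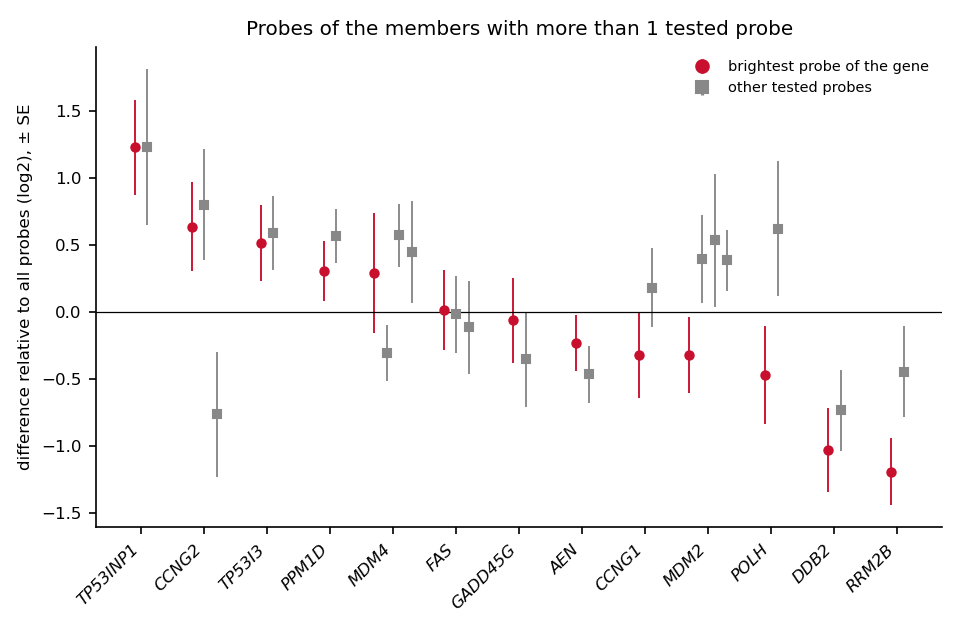
Relative difference (y axis, log2) with its standard error for each tested probe of the 13 members with more than 1 tested probe, brightest probe in red and others in grey. The probes of TP53INP1 coincide near 1.23, whereas those of MDM2, MDM4, CCNG2 and POLH lie on both sides of 0.

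The 7 members with a p53 element in the promoter window stood on both sides of the array median. GDF15, FDXR and FAS were above it and DDB2, SESN1, MDM2 and AEN below it, and their relative differences ranged from -1.03 to 0.78 with a median of -0.23. Of the 18 tested members whose window held no match, 10 were above and 8 below, with a median of 0.05. None of the 7 passed the threshold and 1 of the 18 did (PERP), where 5.66% of all tested probes did. These are descriptions of small groups and were not tested.

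Further targets of p53, a list of 45 genes, were used to widen the view. A probe was found for 43 of them and 41 were tested, with a median relative difference of -0.10. Of the 41, 4 passed, all of them higher, against 3.31% of all probes and 615 of the 16593 named genes tested. The 4 include TNFRSF10C, which entered the test through the group where it was high, so the count leans on it. Besides TNFRSF10C these were PLCL2, a phospholipase-like signalling protein (relative difference 1.80, adjusted p = 0.0337 in limma), ORAI3, a calcium channel subunit (1.80, adjusted p = 0.04997), and SERPINB5, the serpin maspin (1.39, adjusted p = 0.0469). PLCL2 had log2 signals of -4.49, -4.46 and -3.53 in the controls and -2.77, -2.14 and -1.79 in A673/TR/LOX-PP cells. A second probe of PLCL2, well above background on 4 arrays, gave 1.64 and did not pass (adjusted p = 0.119 in limma). ORAI3 had -4.16, -4.87 and -3.43 against -2.76, -2.15 and -1.78, and SERPINB5 had -5.03, -5.28 and -5.50 against -4.11, -4.06 and -3.10. The groups were separate in all 3 genes, and SERPINB5 was well above background on only 2 arrays of each group. None of the 4 passed after normexp background correction, with no filter on dim probes or in the methods' t-test, and none passed without replicate 1 or 2 of the controls or replicate 2 or 3 of A673/TR/LOX-PP.

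Among 28 core and upstream regulators of p53 the median relative difference was -0.23. Of the 28, 2 passed, where 5.66% of all probes did, with 1 higher (3.31% of probes) and 1 lower (2.36%). Of the 16593 named genes tested, 1173 passed, 615 higher and 558 lower. USP7, the deubiquitinase that stabilises MDM2 and p53, fell, with log2 signals of -0.33, -0.27 and -0.67 in the controls and -1.53, -1.67 and -1.56 in A673/TR/LOX-PP cells (relative difference -1.29, interval from -1.80 to -0.79, adjusted p = 0.0281 in limma). TP63, which encodes the p53 relative p63, rose, from -5.59, -5.20 and -5.61 to -2.71, -4.19 and -3.60. Its relative difference was 1.84 (interval from 0.91 to 2.76, adjusted p = 0.0362 in limma), and it was well above background on 2 arrays of each group. In both genes the 2 groups were separate. Neither passed in the methods' t-test, with dim probes kept in, or without replicate 1 or 2 of the controls or replicate 3 of A673/TR/LOX-PP, and without replicate 3 of the controls or replicate 2 of A673/TR/LOX-PP 1 of the 2 passed, USP7 in the first case and TP63 in the second.

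CDKN1A, the cell cycle inhibitor p21 and the target most often set beside MDM2, was left out of the members and rose in these cells, from -3.26, -3.69 and -2.12 to -0.55, -0.38 and -0.28. Its relative difference was 2.49 (interval from 1.53 to 3.45, adjusted p = 0.0164 in limma). That call was lost in the methods' t-test, with no filter on dim probes, and without replicate 1 or 2 of the controls (adjusted p = 0.0936 and 0.0674) or replicate 2 or 3 of A673/TR/LOX-PP (0.0561 and 0.0572).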

How the data were processed

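The authors hybridised total RNA of 6 cultures to 1-colour Agilent SurePrint G3 arrays, 3 of A673/TR/empty and 3 of A673/TR/LOX-PP cells. They deposited the spot intensity written by Agilent Feature Extraction 10.7, with a signal already corrected for background and flags per spot, and a table of processed log2 values. The methods do not name the normalization. On 50528 of 50599 probes the deposited log2 values equalled, within 0.00537, the log2 of the corrected signal after subtraction of the array's 75th percentile and centring of each probe on its median.

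Here the deposited intensity was used without control or outlier spots. Spots of the same probe were averaged as log2 values, which were then set against the 75th percentile of their array. Outlier spots numbered 213 to 353 per array, and none of the 58717 gene spots was saturated. A probe was tested if it was well above background on 3 or more arrays, which left 32647. The test was limma 3.58.1 (R 4.3.3) on the 2 groups with no block. Of the probes 1849 passed a Benjamini-Hochberg adjusted p of 0.05, 1080 higher and 769 lower. The steps were tested on simulated data. Genes were named through a RefSeq table by transcript accession (28174 probes, 20503 genes). The array design used an earlier assembly than that table, so only names, chromosomes and neighbours were taken from it, and coordinates are those of the promoter windows. A gene was represented by its brightest probe.

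The members, the lists of further targets, regulators and markers, and the alternatives were chosen with earlier results of these data known. Values on each array are given for members past the threshold, members whose groups did not overlap, MDM2 and MDM4, genes past the threshold in the further lists, and CDKN1A. The rule also named a further gene, which is not reported here. The alternatives tried for scaling were quantile normalization, centring on probes above background, and the log2 table of the authors. Normexp background correction (offset 50) took the median spot signal, since the files hold no mean. The 3 other filters on dim probes, blocks for slide and replicate number, Student's t-test as named in the methods, omission of each array in turn, and averaging over a gene's probes were also run.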

Additional observations from a re-analysis of the deposited data

How the results depend on the processing

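The number of members past the threshold was 2 and became 4 after quantile normalization (PERP, BTG2, TNFRSF10A and RRM2B), 1 with no filter on dim probes, 1 in the methods' t-test, and from 1 to 3 when single arrays were left out. Without any 1 of the controls or without replicate 2 or 3 of A673/TR/LOX-PP it was 1, and without replicate 1 it was 3. The count of further targets, 4 at first, was 0 after normexp, 0 with no filter, 0 in the methods' t-test and from 0 to 4 without single arrays. The count of regulators, 2 at first, was 0 with no filter, 0 in the methods' t-test and from 0 to 3 without single arrays. The calls over all probes moved too, so these changes are not particular to the p53 genes. They numbered 1849 at first, 1891 after quantile normalization, 1633 after normexp, 516 with no filter and 566 in the methods' t-test. Without replicates 1 to 3 of the controls they were 407, 444 and 1323, and without those of A673/TR/LOX-PP 2062, 892 and 1037. With the replicate number as a block, 1 member (PERP, so that TNFRSF10A was lost), 2 further targets and 0 regulators passed, and 860 probes in all. The numbers do not pair the arrays, since same-numbered arrays correlated at 0.27, -0.39 and 0.23 in their deviations from the group means. The median of the members relative to all genes was 0.12 and ranged from 0.0063 to 0.20 without single arrays. The value of 0.0063 came without replicate 1 of A673/TR/LOX-PP, the only array on slide 2. With the slide as a block the fit is the same, so it is not a second result.

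Some differences of members that did not pass changed sign. Quantile normalization gave 0.024 for GADD45G. Normexp gave -0.089 for FAS, -0.0042 for PLK3, -0.0089 for FDXR and -0.00017 for TIGAR. Without a filter TNFRSF10B was -0.12, FAS -0.16, PLK3 -0.11, FDXR -0.13 and TIGAR -0.15. Here only the subtracted median of all tested probes changed, from 0.13 to 0.30. The differences of these genes before that step stayed the same. With the slide as a block, which is the same fit as without replicate 1 of A673/TR/LOX-PP, TNFRSF10B was -0.082, PLK3 -0.13, MDM4 -0.27 and TIGAR -0.088. The mean of all probes was 0.076 for POLH, -0.037 for FAS and 0.25 for MDM2. Leaving out single arrays gave ranges of -0.082 to 0.22 for TNFRSF10B, -0.13 to 0.20 for FAS, -0.13 to 0.23 for PLK3, -0.30 to 0.23 for GADD45G, -0.27 to 0.66 for MDM4, -0.036 to 0.15 for FDXR and -0.13 to 0.24 for TIGAR. The causes of the other sign changes were not tested. The other differences of members kept their direction under the 17 alternatives. EDA2R, SPATA18, TNFRSF10C, SERPINB5 and TP63 lie near background, which limits what their values can show.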
